A study of Drosophila melanogaster with 36 samples.

Results

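Hi-C of ovarian somatic cells after Nxf2 knockdown (Nxf2-KD) was compared with the Control-KD made for the same experiment, using the contacts between 40-kb bins of Drosophila chromosome arms X, 2L, 2R, 3L and 3R (dm3). The members are the 2957 bins kept in both matrices, of 2977 bins on these arms, and they come from 4 samples of the 18 Hi-C samples and 36 samples of the series. OSCs are a cultured somatic line of the Drosophila ovary. Nxf2-KD cells (2 replicates) received an siRNA duplex against Nxf2 by nucleofection, and Control-KD cells (2 replicates) received one against EGFP, a jellyfish protein with no gene in these cells. The labels do not give the number of days of Nxf2-KD or of its Control-KD. Of the Control-KD matrices of other series used below, only that of the HP1a series has a label for this, 2 days. The replicates of each KD were merged by the authors into 1 matrix, so that no SD, n or p-value can be given for any change. How far Nxf2 itself was lowered was not measured in these files.

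In ovarian somatic cells, Piwi carries piRNAs into the nucleus and finds nascent transcripts of transposable elements that match them. Nxf2 is a relative of the general mRNA export factor Nxf1 and acts with Piwi, Panoramix and Nxt1 (p15) in the co-transcriptional silencing of those elements. Hi-C ligates restriction fragments that were crosslinked close to each other, and so reports how often each pair of genome bins meets in the nucleus, including the folding of neighbouring bins into topologically associating domains (TADs) and the segregation of arms into compartments.

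The siRNA defines which transcript was targeted, and both strands are shown as the study's oligonucleotide table gives them, 5′ to 3′, with the 19 paired bases in capitals and the overhang in lower case. The nxf2 gene lies on arm 3L.
Nxf2-siRNA sense: CGAAAUCACAGUGCACCAUtt
Nxf2-siRNA antisense: AUGGUGCACUGUGAUUUCGtt

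The deposited values are contact signals corrected to 1 common total per kept bin, 38667 in both matrices. Contacts before this correction were recovered from the steps between low values, all of which (100% of values under 50, within 0.01) came out whole. The Nxf2-KD matrix held 63488561 contacts and its Control-KD matrix 67818268. Those of the Piwi, the HP1a and the H1 and Egg series (called H1/Egg-series control and so on) held 72450303, 31691817 and 31120409, so that pairs with the last 2 carry more counting error. Each change below is the log2 ratio of Nxf2-KD over Control-KD after scaling to equal totals within arms. It is set beside the same ratio in the 6 pairs that the 4 Control-KD matrices form, 3 of which include the Nxf2-series control. The root mean square of these 6 ratios is called the control-pair spread. A change larger in size than in all 6 pairs is called beyond the control pairs, which is a description of these matrices and not a test.

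Upon Nxf2-KD, single places along the arms lost contacts with their surroundings within 400 kb. For each bin, contacts with partners 40 to 400 kb away were summed, and the short-range change is the log2 ratio of this sum less the arm's median ratio. Of 2907 bins with enough neighbours (at least 15 of 20), 81 decreased by at least 0.15 on the log2 scale, which is 2.79%, and 2 increased by as much, which is 0.0688%. In 78 bins (2.68%) the decrease was also beyond the control pairs, and these bins formed 35 separate regions. The 6 control pairs, in which no gene was knocked down, had between 0 and 34 bins at or below -0.15 and between 1 and 73 at or above 0.15. The pair with 34 and 73 was the Nxf2-series control over the Piwi-series control. The excess of losses over gains depended on the Control-KD matrix. With the Piwi-series control 74 bins decreased and 122 increased, so that gains were more frequent, while the H1/Egg-series control gave 98 and 40 and the HP1a-series control 100 and 16. Against its own Control-KD, the changes upon Nxf2-KD were skewed to losses on every arm, with a skewness between -0.93 on 3R and -2.24 on 3L.

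The losses were found on all 5 arms and were most frequent on 2L. Of the tested bins, 4.45% decreased on 2L (25 bins), 3.49% on 2R (18 bins), 2.51% on 3L (15 bins), 2.21% on X (12 bins) and 1.6% on 3R (11 bins). The number of decreased regions beyond the control pairs was 10 on 2L, 7 on 2R, 7 on 3R, 6 on X and 5 on 3L. Of the 35 regions, 12 were a single bin and 10 held 3 or more decreased bins, the longest having 7. On 3R the lowest bin stood at -0.21, while on each of the other arms the lowest bin was between -0.34 and -0.41.

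**Figure D1:**
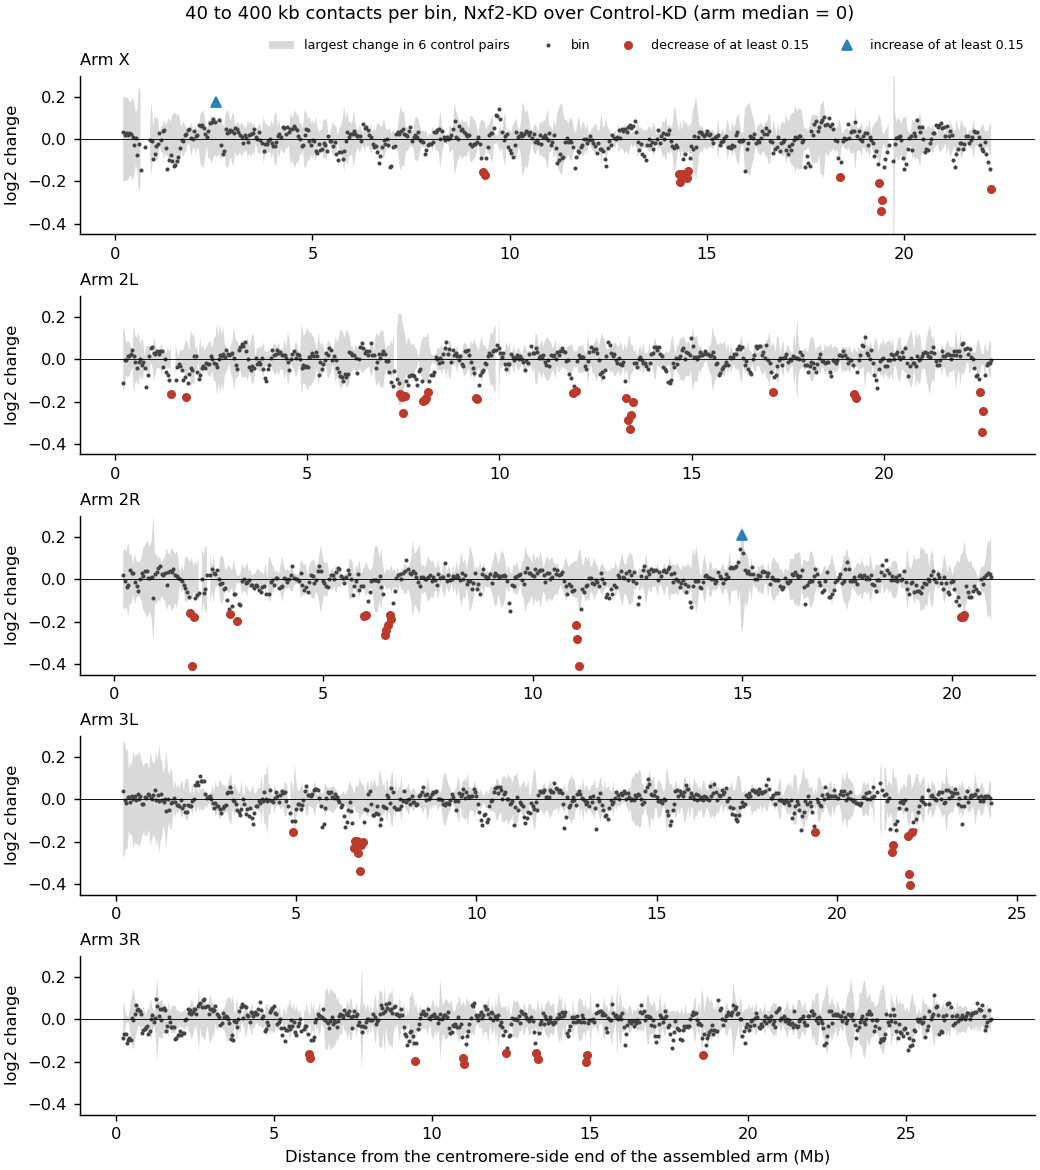
Short-range change of each 40-kb bin (points, log2 of Nxf2-KD over Control-KD, arm median set to 0) against the distance from the centromere-side end of the assembled arm in Mb, with the largest change of the 6 control pairs as a grey band. The 81 decreased bins (red) stand in narrow groups on every arm, and the 2 increased bins (blue) are on X and 2R.

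The size of the loss depended on the correction. Taken on recovered contacts before correction, 15 bins in place of 81 reached -0.15. The most changed bin of all 35 regions was below 0 before correction, and 10 of these bins reached -0.15. The regions were chosen by these same contacts after correction, so that this sign is a description and no separate support. In the decreased bins the median change of short-range contacts before correction and without centring was -0.13, against -0.04 over all bins tested. Their contacts over 2 Mb away on the same arm had a median change of 0.28 before correction, against 0.06 over all bins tested, and were above 0 in 81 of 81 bins, as they were in 2359 of all 2907. Their contacts with other arms had a median of 0.14, against -0.023 over all bins, and their total contacts a median of 0.085, against -0.0073. The equal totals after correction tie these ranges to each other, so that a gain in one lowers the others.

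The deepest loss was on 2R at 11080001 to 11120000, in the interior of the arm. Its contacts at 40 to 400 kb summed to 9144 in Nxf2-KD and 12456 in Control-KD. The change was -0.41, the largest change of a control pair at this bin was 0.13, and the change before correction was -0.27. The loss lay mainly on the left, with -0.56 on that side and -0.12 on the right. The partner with the largest loss, among those within 2 Mb with at least 100 recovered contacts in Control-KD, was the bin at 11000001 to 11040000, 80 kb away. This pair had 953 recovered contacts in Nxf2-KD and 1942 in Control-KD, a corrected log2 ratio of -0.99 with a counting error of 0.057, where control pairs differed by at most 0.21.

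A region of the same depth lay near the centromere of 2R, at 1840001 to 1880000. Its short-range sum was 11701 in Nxf2-KD and 15904 in Control-KD, a change of -0.41, against at most 0.1 in control pairs and -0.35 before correction. All of the loss was on the left side, towards the centromere, with -0.69 there and 0.1 on the right. With the bin at 1720001 to 1760000 it shared 899 recovered contacts in Nxf2-KD and 1941 in Control-KD. The corrected log2 ratio of this pair was -1.05, with a counting error of 0.058. The mean contact of the bin at 1840001 with bins 200 kb away was 934 in Nxf2-KD and 1611 in Control-KD. With bins 400 kb away it was the other way round, 164 in Nxf2-KD and 93.4 in Control-KD.

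On 3L the bin at 2480001 to 2520000 had a short-range sum of 10185 in Nxf2-KD and 13756 in Control-KD. Its change was -0.41, against at most 0.11 in control pairs and -0.29 before correction. Here the loss was on the right, with -0.64 there and -0.17 on the left. Its contacts with the bin at 2560001 to 2600000, 80 kb away, numbered 857 in Nxf2-KD and 1666 in Control-KD before correction. The corrected log2 ratio of this pair was -1.04.

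The second 3L region ran over 280 kb, from 17680001 to 17960000, and was the longest, with 7 decreased bins. Its most changed bin, at 17760001 to 17800000, had a short-range sum of 12126 in Nxf2-KD and 15655 in Control-KD, a change of -0.34, against at most 0.099 in control pairs and -0.19 before correction. The pair of this bin with the bin at 17680001 to 17720000 had 1699 recovered contacts in Nxf2-KD and 3042 in Control-KD. Its corrected log2 ratio was -0.84, with a counting error of 0.044. Between 16 and 19 Mb of 3L, these 7 bins were the only ones of 75 tested that decreased, the median change of the stretch being -0.029.

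On 2L the most changed bin was at 440001 to 480000, close to the telomere, in a region from 400001 to 520000. Its short-range sum was 8431 in Nxf2-KD and 10871 in Control-KD, a change of -0.34, where control pairs changed by at most 0.024. Before correction the change was -0.16. On X, the bin at 3000001 to 3040000 had 13887 in Nxf2-KD and 18099 in Control-KD, a change of -0.34, against at most 0.095 in control pairs. Before correction it was -0.099, and the total of recovered contacts of this X bin was 0.24 higher. The total of the 2L bin was 0.15 higher, while those of the 2R bins differed by 0.048 at 11080001 and 0.026 at 1840001.

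The Control-KD matrices of the other series were used to choose the 35 regions, and every ratio below but that of Piwi-KD shares the Nxf2-KD matrix. The signs of these ratios were therefore nearly fixed by the choice, and the values are given as a description of size. The most changed bin was at or below -0.15 in 25, 32 and 32 regions with the Piwi-, H1/Egg- and HP1a-series controls, and in 24 with all 3. In Piwi-KD set against its own Control-KD, 34 of the 34 bins with a value were below 0 and 18 were at or below -0.15. Of all 2897 bins tested that had a value in Piwi-KD, 1446 were below 0 and 68 were at or below -0.15. The deepest bin, on 2R, had -0.26, -0.32 and -0.31 with the Piwi-, H1/Egg- and HP1a-series controls, and -0.32 in Piwi-KD.

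**Figure D2:**
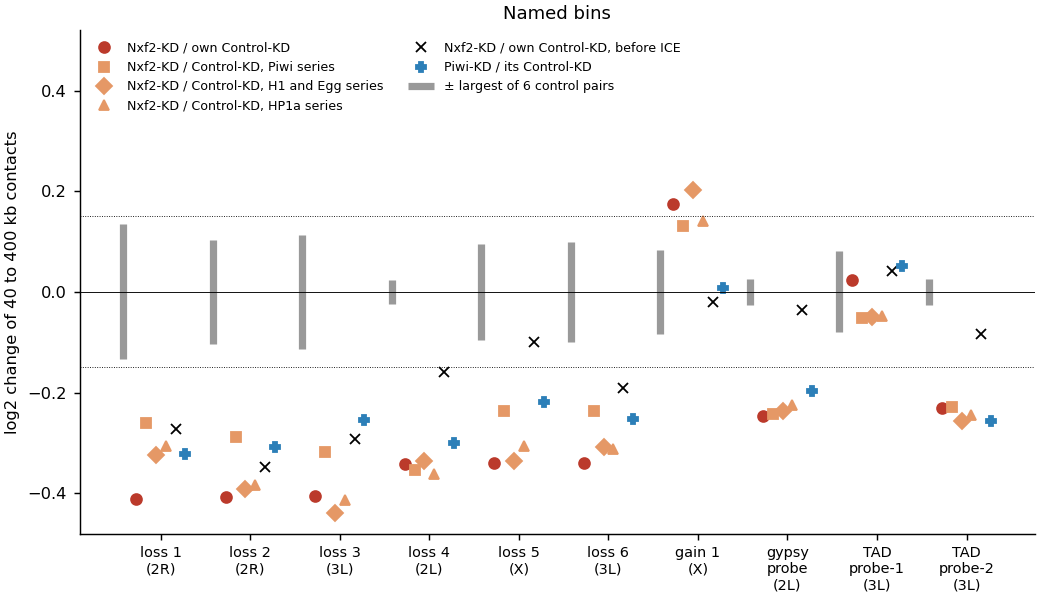
Short-range change (log2) of the named bins for Nxf2-KD over its own Control-KD (red circles), over the Control-KD of each other series (orange), over its own Control-KD before correction (crosses), and for Piwi-KD over its Control-KD (blue), beside the largest change of the 6 control pairs (grey bars). The 6 losses, ordered by size (2R, 2R, 3L, 2L, X, 3L), are below the control pairs with all 4 Control-KD matrices, while the gain on X vanished before correction.

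The study placed 3 FISH probes at sites that fall in these bins, each probe set lying within 1 bin, if the positions of its probe table are on dm3 as the matrices are. The table names no build. The bin of the gypsy probe, at 400001 to 440000 on 2L, lay next to the most changed 2L bin and had a short-range sum of 10655 in Nxf2-KD and 12855 in Control-KD. Its change was -0.25, against at most 0.025 in control pairs, and -0.036 before correction, while its recovered total was 0.18 higher. The loss was -0.53 on the right side, which holds the decreased neighbours, and -0.039 on the left. TAD probe-2, on 3L at 17920001 to 17960000, lay in the long decreased region and had a change of -0.23, against at most 0.026 in control pairs and -0.083 before correction. Its contacts with the bin at 17720001 to 17760000 numbered 298 in Nxf2-KD and 482 in Control-KD before correction. The corrected log2 ratio of this pair was -0.82, where control pairs differed by up to 0.45. TAD probe-1, at 17520001 to 17560000, lay outside the region, with sums of 8907 in Nxf2-KD and 8938 in Control-KD and a change of 0.023, inside the 0.08 of control pairs. The pair of TAD probe-1 with TAD probe-2, 400 kb apart, had 345 recovered contacts in Nxf2-KD and 392 in Control-KD. Its log2 ratio in corrected values, 165 in Nxf2-KD and 186 in Control-KD, was -0.18. The counting error was 0.11, and control pairs differed by up to 0.28. Of the 593 pairs at this distance on 3L, 21.8% were lower.

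Of the 2 increased bins only the one on X, at 19840001 to 19880000, was beyond the control pairs, with sums of 16405 in Nxf2-KD and 14950 in Control-KD and a change of 0.18 against at most 0.083. Before correction its change was -0.02. In recovered contacts this bin did not gain.

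The decreased bins were otherwise ordinary in position. Of the 81, 5 lay within 2 Mb of the centromere-side end (6.17%, against 7.53% of all bins tested), 7 within 2 Mb of the telomere-side end (8.64%, against 7.71%) and 69 in the interior. Of the 81, 38 lay within 1 bin of a TAD border (46.9%, against 45.2%). In the 5 equal classes of interior bins described below, from lowest to highest on the compartment-like axis, they numbered 11, 19, 16, 11 and 11.

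Decreased bins had more long-range contacts, with each other and with other bins. Bin pairs of the same arm over 2 Mb apart, both of them decreased, had a mean contact of 27.2 in Nxf2-KD and 20.2 in Control-KD over 497 pairs. This is a log2 ratio of 0.43, against 0.069 over all pairs of this kind and at most 0.15 in control pairs for the same bins. These 497 pairs held 15868 recovered contacts in Nxf2-KD and 11577 in Control-KD. Divided by the mean of the arm at the same distance, their contact was 1.56 in Nxf2-KD and 1.21 in Control-KD, giving a log2 ratio of 0.36 against at most 0.2 in control pairs and 0.23 in Piwi-KD. By arm, the distance-adjusted log2 ratio was 0.29 on X, 0.4 on 2L and 0.48 on 3L, beyond the control pairs, and 0.34 on 2R and 0.18 on 3R, inside them. Between different chromosomes the ratio among decreased bins was 0.16, inside the 0.35 of control pairs. Decreased bins with the other tested bins of their arm, also over 2 Mb apart, had 1.14 in Nxf2-KD and 1.03 in Control-KD, giving a log2 ratio of 0.15 against at most 0.034 in control pairs. When the contact among decreased bins was also divided by the mean long-range levels of the 2 bins of each pair, a calculation added after seeing the data, it was 1.13 in Nxf2-KD and 1.11 in Control-KD. This left a log2 ratio of 0.028, inside the 0.14 of control pairs, and 0.016 before correction. No gain particular to pairs of decreased bins was therefore measured beyond the gain of each bin. The bins were chosen by their short-range loss and each bin has a fixed total, so that part of the gain of each bin is built into the corrected values. Before correction the distance-adjusted log2 ratio was 0.49 among decreased bins and 0.22 with the other tested bins, larger than after it.

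**Figure D3:**
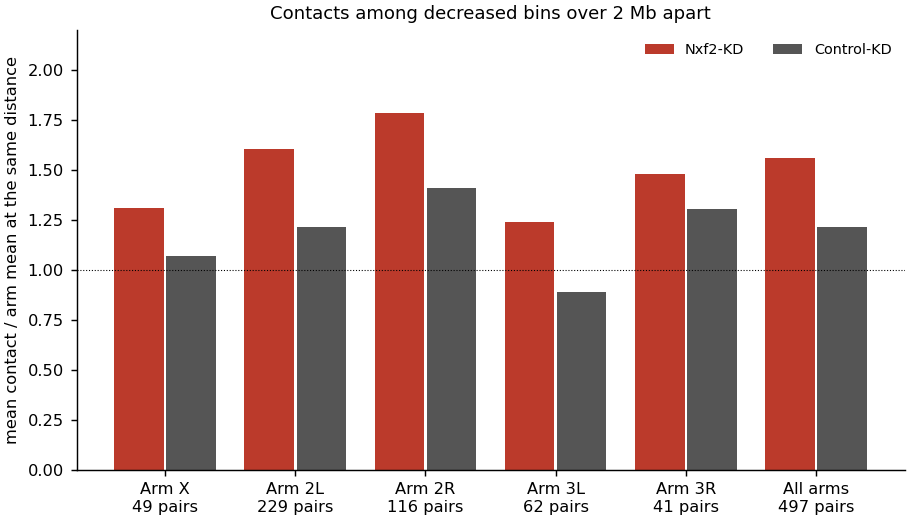
Mean contact between decreased bins of the same arm over 2 Mb apart, divided by the arm mean at the same distance, in Nxf2-KD (red) and Control-KD (grey), with the number of bin pairs under each arm. Nxf2-KD was higher on every arm, and over all arms it stood at 1.56, against 1.21 in Control-KD, a difference that fell to 1.13 against 1.11 once the long-range levels of both bins were divided out.

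Over the arms as a whole, contacts within 2 Mb changed little, and contacts over 10 Mb were higher beyond the control pairs on 2R and X. The mean contact of bin pairs 40 to 400 kb apart was 697 in Nxf2-KD and 718 in Control-KD, giving a log2 ratio of -0.043 with a control-pair spread of 0.049. From over 400 kb to 2 Mb it was 0.001, and from over 2 to 10 Mb it was 0.053 with a spread of 0.071. Over 10 Mb the mean was 6.82 in Nxf2-KD and 6.1 in Control-KD, giving a log2 ratio of 0.16, inside the 0.19 reached by a control pair. Piwi-KD over its own Control-KD had 0.28 in this class over all arms. By arm, Piwi-KD had 0.35 on 2R, 0.2 on X, 0.31 on 3L, 0.31 on 3R and 0.23 on 2L.

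By arm, 2R and X stood out in this longest class against the matched Control-KD. On 2R the mean over 10 Mb was 8.38 in Nxf2-KD and 7.02 in Control-KD, giving a log2 ratio of 0.26, against at most 0.12 in control pairs. On X it was 10.3 in Nxf2-KD and 8.96 in Control-KD, giving a log2 ratio of 0.2, against at most 0.14. Against the Piwi-, H1/Egg- and HP1a-series controls, the 2R value was 0.28, 0.3 and 0.18 and the X value 0.33, 0.29 and 0.19, all beyond the control pairs. On 3L (0.14), 3R (0.15) and 2L (0.019) the change was inside the control pairs. With the Piwi-series control these 3 arms also rose beyond the control pairs, by 0.36 on 3L, 0.38 on 3R and 0.25 on 2L, as 3R did with the H1/Egg-series control (0.25). The order of the arms therefore depended on the Control-KD matrix. On 2R the ratio grew with distance, to 0.29 at 14 Mb and 0.45 at 18 Mb. At 18 Mb the mean contact on 2R was 4.88 in Nxf2-KD and 3.57 in Control-KD, and control pairs differed by at most 0.11. On X the ratio also grew, to 0.23 at 14 Mb and 0.32 at 18 Mb, where control pairs reached 0.16 and 0.11. Over all arms it was 0.24 at 18 Mb, where control pairs reached 0.2.

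**Figure D4:**
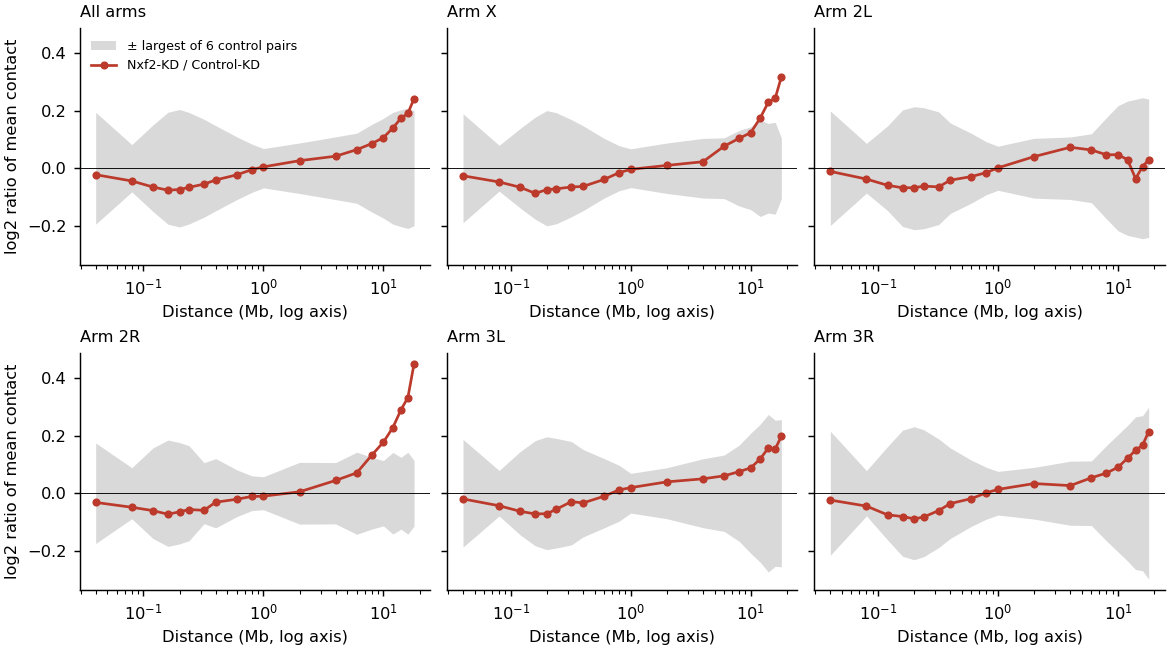
log2 ratio of the mean contact in Nxf2-KD over Control-KD against distance (Mb, log axis) for all arms and each arm, with the largest ratio of the 6 control pairs as a grey band. On 2R and X the curve leaves the band at the long distances and reaches 0.45 and 0.32 at 18 Mb. On 2L it stays near 0.

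Pericentromeric bins (within 2 Mb of the centromere-side end of the assembled arm, 244 kept) did not differ from interior bins (2464 kept) in their short-range contacts beyond the control pairs. The difference of the medians was -0.005, with a control-pair spread of 0.038. In contacts over 2 Mb away on the same arm, pericentromeric bins had a median change of 0.12 and interior bins one of 0.06. The difference of 0.058 was beyond the control pairs, which reached 0.031, and Piwi-KD had 0.047. It was 0.02, 0.049 and 0.02 with the Piwi-, H1/Egg- and HP1a-series controls, so that with 2 of the 3 it lay inside the control pairs.

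The difference varied between arms. The pericentromeric minus interior difference was 0.12 on 2L, 0.094 on 2R and 0.099 on 3L, each beyond the control pairs, 0.014 on X and -0.059 on 3R. On 2L it was 0.15, 0.13 and 0.1 with the Piwi-, H1/Egg- and HP1a-series controls. On 2R it was 0.032, 0.065 and 0.019 with these matrices, inside the control pairs with all 3, and also inside them (0.044) with zones of 1 Mb. On 3L it was 0.001, 0.1 and 0.046, inside the control pairs with the Piwi- and HP1a-series controls, and again inside them (0.11) with zones of 1 Mb. Of the 3 arms, 2L alone stayed beyond the control pairs with each of these settings. The telomere-side bins minus interior bins gave 0.08 on 2L and 0.1 on 2R, beyond the control pairs, and -0.093 on 3R, beyond them in the opposite direction. With the other 3 Control-KD matrices this telomere-side difference was between 0.062 and 0.081 on 2L, between 0.067 and 0.095 on 2R, and between -0.051 and -0.09 on 3R.

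**Figure D5:**
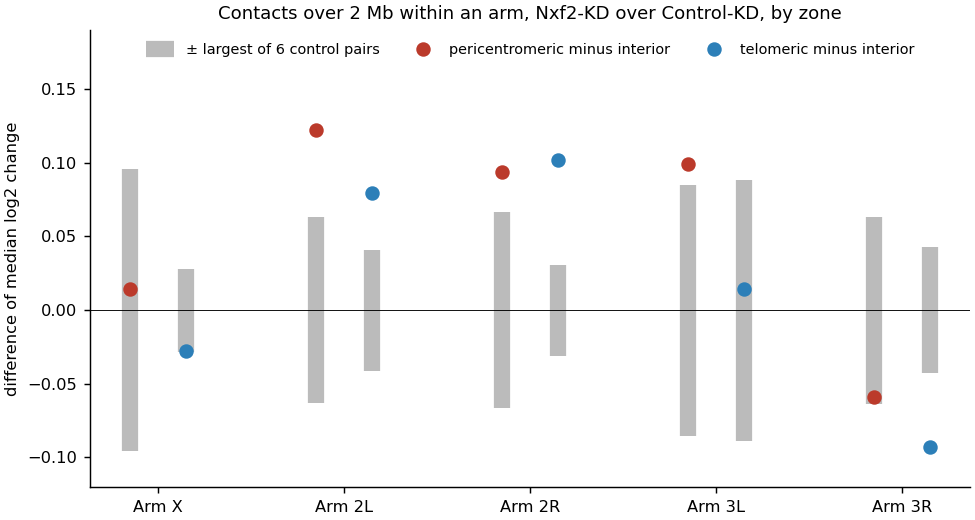
Difference between the median log2 change (Nxf2-KD over Control-KD) of contacts over 2 Mb in pericentromeric (red) or telomere-side (blue) bins and that in interior bins of each arm, beside the largest difference of the 6 control pairs (grey bars). 2L and 2R are above the bars for both zones, 3L for the pericentromeric bins alone, and 3R lies below 0 for both.

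Between arms, the amount of contact differed from Control-KD by less than the control-pair spread. Contacts between arms made up 21.3% of the signal in Nxf2-KD and 21.4% in Control-KD, giving a log2 ratio of -0.012 with a control-pair spread of 0.2. The 10 pairs of arms lay between -0.05 (3L with 3R) and 0.047 (2L with 3R), each within its control-pair spread. Of the 4 Control-KD matrices, that of the Nxf2 series had the largest share between arms, the others having 19.4% (Piwi series), 18.7% (HP1a series) and 17.9% (H1 and Egg series). The log2 ratio of the mean contact between arms in Nxf2-KD over them was 0.17, 0.23 and 0.31. Nxf2-KD thus shared the high level of its own control.

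Contacts between pericentromeric bins of different chromosomes, the zone from which a chromocenter would form, averaged 6.57 in Nxf2-KD and 6.51 in Control-KD. The log2 ratio was 0.014, with a control-pair spread of 0.17. Telomere-side bins of different chromosomes averaged 9.31 in Nxf2-KD and 9.62 in Control-KD, giving a log2 ratio of -0.046 with a spread of 0.16. Interior bins averaged 2.69 in Nxf2-KD and 2.7 in Control-KD. The largest ratio of the 6 combinations of zones was 0.13, for pericentromeric with telomere-side bins, with 1.47 in Nxf2-KD and 1.35 in Control-KD and a spread of 0.39.

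Compartment-like segregation was measured from classes of interior bins that the other 3 Control-KD matrices gave. The eigenvector that followed short-range density most closely (|r| between 0.73 and 0.88, the 2nd on 2L and the 1st on the other arms) was divided into 5 equal classes. The strength is the log2 ratio of contact within the lowest and within the highest class over contact between them, at 400 kb to 10 Mb. Averaged over the arms it was 0.78 in Nxf2-KD and 0.81 in Control-KD, a change of -0.03 with a control-pair spread of 0.053. X, 2R, 3L and 3R changed by -0.074, -0.054, -0.087 and -0.044, inside the control pairs. 2L, classed on another eigenvector than these arms, had 1.15 in Nxf2-KD and 1.04 in Control-KD, a change of 0.11 against at most 0.044 in control pairs. Its Control-KD was the lowest of the Control-KD matrices on 2L, the others having 1.08 (Piwi series), 1.09 (H1 and Egg series) and 1.07 (HP1a series). Those other matrices gave the classes and are favoured by them. Contact between the 2 extreme classes of 2L was 0.48 of the distance mean in Nxf2-KD and 0.52 in Control-KD. The 2L change was 0.076, 0.067 and 0.083 with the Piwi-, H1/Egg- and HP1a-series controls, and it became -0.059 when pericentromeric and telomere-side bins were kept in the classes.

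Insulation at TAD borders changed on average by less than the control-pair spread, and single positions shifted by more. The insulation score is the log2 mean contact across a position between the 200 kb on either side, relative to the arm. At 329 borders found in the other 3 Control-KD matrices, the mean depth of the score below its flanks was 0.69 in Nxf2-KD and 0.7 in Control-KD, a change of -0.014 with a control-pair spread of 0.03. The score was lower by at least 0.15 at 152 of 2919 positions (5.21%) and higher by as much at 20 (0.685%), and 141 of the lowered and 16 of the raised positions were beyond the control pairs. Control pairs had between 1 and 158 positions lower and between 0 and 167 higher. Of the 152 lowered positions, 63.2% lay within 200 kb of a decreased bin, as 14% of all positions did. Both measures use the same short-range contacts. On 2R at 1840001 the score was -0.53 in Nxf2-KD and 0.19 in Control-KD, and on X at 3000001 it was -0.19 in Nxf2-KD and 0.3 in Control-KD, so that positions of above-average contact across became positions of below-average contact.

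Single borders changed in both directions. Of the 329 borders, 50 lost and 35 gained depth beyond the control pairs. The SD of the change over borders was 0.088, inside the range of control pairs (0.041 to 0.098). How many borders of a control pair exceed the other pairs was not counted, so that these numbers have no yardstick. The largest loss was on 3L after base 3080000, with a depth of 0.82 in Nxf2-KD and 1.14 in Control-KD, a change of -0.32 against at most 0.19 in control pairs. It was followed by borders on 2L after 16880000 (-0.24), 3R after 25880000 (-0.23) and 3L after 2800000 (-0.23). With the Piwi-series control the same 4 changes were -0.14, -0.074, -0.2 and -0.0072. The third was beyond the control pairs with all 3 other Control-KD matrices. The first was inside them with the Piwi- and HP1a-series controls (-0.13 with the HP1a-series control), the second with the same matrices (-0.14 with the HP1a-series control) and the last with all 3. The largest gains were on 2R after 6000000 (0.26) and on 3L after 5160000 (0.25), 2560000 (0.24) and 1080000 (0.23). The gain after 5160000 on 3L had a depth of 1.01 in Nxf2-KD and 0.76 in Control-KD, with 8602 recovered contacts across in Nxf2-KD and 11133 in Control-KD. It was 0.26, 0.28 and 0.33 with the other 3 Control-KD matrices, and 0.36 in Piwi-KD. With the Piwi-series control the gain after 6000000 on 2R was 0.12, inside the 0.14 of control pairs, and that after 2560000 on 3L was 0.1, inside the 0.14 of control pairs there. The border after 2560000 on 3L lies inside the decreased region at 2440001 to 2600000.

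Contacts farther apart were compared as blocks of 400 kb by 400 kb, at least 800 kb apart. The change of a block is the log2 ratio of its corrected mean contacts, less the median ratio of its arm or pair of arms. It therefore differs from the plain ratio of the mean contacts or recovered contacts given beside it. Within arms, 98 of 8179 blocks decreased (1.2%) and 251 increased (3.07%) by at least 0.3 and beyond the control pairs. Between arms, 756 of 35189 decreased (2.15%) and 1412 increased (4.01%). Control pairs had between 197 and 413 blocks past 0.3 within arms and between 3027 and 7040 between arms, while Nxf2-KD had 125 lower and 305 higher within arms and 1446 lower and 2665 higher between arms. In both directions together these are 430 blocks within arms, slightly more than in any control pair, and 4111 between arms, inside the range of control pairs.

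Of the 3 within-arm blocks with the largest decrease, 2 lay near the centromere of 2R. The block joining 1200001 to 1600000 with 2400001 to 2800000 had a mean contact of 49.9 in Nxf2-KD and 69.6 in Control-KD, from 6011 recovered contacts in Nxf2-KD and 8784 in Control-KD. Its change was -0.59 with a counting error of 0.024, control pairs reached 0.065, and the other 3 Control-KD matrices gave -0.65, -0.65 and -0.61. The block joining 800001 to 1200000 with the same 2400001 to 2800000 had 30.6 in Nxf2-KD and 42.5 in Control-KD, also a change of -0.59. Both span the decreased 2R bin at 1840001, and Piwi-KD had -0.49 in each. The third decreased block, on 2L between 1600001 to 2000000 and 20000001 to 20400000, had 117 recovered contacts in Nxf2-KD and 174 in Control-KD, with a change of -0.61, and Piwi-KD had 0.25. With the other 3 Control-KD matrices it was -0.37, -0.57 and -0.24, where control pairs reached 0.37.

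The largest gains within arms joined distant parts. On X, 4000001 to 4400000 with 21600001 to 22000000 had 10.2 in Nxf2-KD and 6.03 in Control-KD, a change of 0.66 against at most 0.29 in control pairs, and 0.37, 0.54 and 0.58 with the other 3 Control-KD matrices. On 2L, 14800001 to 15200000 with 22000001 to 22400000 had 17.6 in Nxf2-KD and 10.9 in Control-KD, a change of 0.65 with a counting error of 0.05 against at most 0.22, and 0.74, 0.54 and 0.62 with the other 3 Control-KD matrices. The third, on 2R between 1200001 to 1600000 and 19600001 to 20000000, had a change of 0.63, where control pairs reached 0.49. With the other 3 Control-KD matrices it was 0.32, 0.15 and 0.17, inside the control pairs. Between arms, the 6 blocks with the largest changes held between 32 and 152 recovered contacts per matrix and had counting errors between 0.18 and 0.31. The largest gain, 2R at 2000001 to 2400000 with 3R at 23600001 to 24000000, was 1.5, and 1.1 before correction. This block held 67 recovered contacts in Nxf2-KD and 34 in Control-KD, and its change was 0.29 with the Piwi-series control.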

How the data were processed

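Hi-C libraries were cut with HindIII. The authors mapped reads to dm3, counted contacts between 40-kb bins, summed replicates, removed bins of low or high coverage, applied ICE (iterative correction to equal bin totals) and normalized compared matrices to one another. This corrected contact signal, not counts, is what was deposited, so no count test was used. Merged matrices leave no spread between replicates.

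Matrices were scaled to equal totals of off-diagonal contacts within arms over bins kept in both. Recovered contacts were each value divided by the factors of its 2 bins, and counting errors cover counting alone. PCR duplicates could not be checked here. Tests on simulated matrices covered only part of the measures, among them the short-range change per bin and contacts between pericentromeric zones. Single borders, blocks and contacts in the longest distance class were not covered. Borders were local minima at least 0.2 below the maxima within 400 kb on either side. Named were, beside the probe bins, the 6 regions with the largest decrease, up to 4 with an increase, the 4 borders with the largest loss and the 4 with the largest gain, and 3 blocks per kind and direction, all beyond the control pairs. Partners of a bin were chosen after their values were seen. Members and measures were chosen with earlier results of these data known. Alternatives were other Control-KD matrices, bin sets, recovered contacts, scalings, distances, limits, zones, classes, windows, blocks and single arms. Gene positions and insertion sites of transposable elements on dm3 were not used here. Scripts ran under Python 3.11.15 with pandas 2.3.3 for tables, NumPy 2.4.6 for matrices and matplotlib 3.10.9 for plots.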

Additional observations from a re-analysis of the deposited data

How the results depend on the processing

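No paired analysis was possible because the replicates of each KD were merged before deposit, so the shared replicate numbers of the labels mark no columns. Of 415 values recomputed under another setting, 295 moved by less than the control-pair spread (counts, by less than 1.5 times). The sign differed in 31, of which 25 were with another Control-KD matrix. Among values beyond the control pairs, 2 changed sign, the X bin at 19840001, with -0.0198 in recovered contacts, and the compartment-like strength on 2L, with -0.059 when pericentromeric and telomere-side bins were kept. The others were inside the control pairs and include contacts between arms, border depth, compartment-like strength on the other 4 arms and the short-range pericentromeric difference. The cause of the changes below was not tested, except where a limit or a block size sets the count by its construction.

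The number of decreased bins was 15 in recovered contacts, 45 at 40 to 800 kb, 189 at a limit of 0.1 and 30 at 0.2. The number of increased bins was 6 in recovered contacts, 12 at 80 to 400 kb, 12 at a limit of 0.1, 1 at 0.2, 1 without arm X and 1 without arm 2R. Lowered insulation positions numbered 78 in recovered contacts and 99 with a 400-kb window, and raised ones 7 with that window and 13 without arm X. The pericentromeric minus interior difference over 2 Mb was 0.034 with zones of 1 Mb and 0.088 without arm 3R.

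With the Piwi-series control, decreased and increased bins numbered 74 and 122, lowered and raised insulation positions 263 and 193, and decreased and increased blocks within arms 236 and 404. The log2 ratio was 0.14 over 2 to 10 Mb and 0.34 over 10 Mb, border depth changed by 0.023, and the pericentromeric minus interior difference was 0.047 at short range and 0.0198 over 2 Mb. With the H1/Egg-series control, increased bins numbered 40, lowered and raised positions 258 and 150, and decreased and increased blocks between arms 2041 and 2650. The log2 ratio was -0.099 at 40 to 400 kb, 0.16 over 2 to 10 Mb, 0.31 between arms and 0.29 between pericentromeric zones. With the HP1a-series control, these numbers were 16 bins, 267 and 135 positions, and 1999 and 2723 blocks. The log2 ratio was -0.064 over 400 kb to 2 Mb, 0.23 between arms and 0.19 between pericentromeric zones, compartment-like strength changed by 0.059, border depth by 0.031, and the pericentromeric difference over 2 Mb was 0.0203.

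Decreased and increased blocks within arms numbered 339 and 629 at a limit of 0.2, 16 and 84 at 0.4, and 833 and 1547 with 200-kb blocks. Between arms they numbered 1818 and 2230 at 0.2, 240 and 737 at 0.4, and 7548 and 7129 with 200-kb blocks. Changes smaller than the differences between Control-KD matrices were not detectable here.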

Other observations

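Arms 2L and 3R, which belong to different chromosomes, had a mean contact of 4.04 in Nxf2-KD and 3.91 in Control-KD. The other 7 pairs of arms on different chromosomes lay between 2.06 and 3.15 in Nxf2-KD, and 3L with 3R, on the same chromosome, had 4.01.

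Blocks between arms past the limit and beyond the control pairs were most frequent with X. They made up 9.77% of blocks of X with 3R and 8.49% of X with 2L, against 3.65% of 2L with 3L. The same shares were not counted for control pairs. In Nxf2-KD, X (561 bins) held 15.7% of recovered contact ends and 2R (529 bins) held 18.1%. Whether the lower coverage of X bears on these shares was not tested.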
